A study of Homo sapiens with 18 samples.

Results

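Fucoxanthin (FUCO), a marine carotenoid, was tested at 1 μM against the free fatty acid (FFA) model in Hep3B cells, a human hepatoma line that keeps many hepatocyte features. The comparison rests on the 6 libraries that the sample titles name FUCO-1 and Model, 3 of each, out of 18 RNA-seq libraries in the series. Model cells received FFA, and FUCO-1 cells received FFA with FUCO, so both groups carried the fatty acid load. The other 12 libraries were untreated cells (Con), FFA with FUCO at 0.5 or 2 μM (FUCO-0.5, FUCO-2) and FFA with Resmetirom (RES), an agonist of thyroid hormone receptor beta, 3 libraries each. The titles give the number in FUCO-1 without a unit, and micromolar doses come from the study's other Hep3B assays. FFA concentration and treatment times were not stated for these libraries. All cells came from 1 hepatoma line, so no group speaks for primary hepatocytes.

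Cells read stress and growth signals within minutes through the immediate early genes, a set of transcription factors and feedback regulators that switch on without new protein synthesis and switch off as quickly. They include the EGR, AP-1, NR4A and KLF factors, and the phosphatases and RNA-binding proteins that shut the signal down. Hepatocytes also secrete much of the plasma proteome, and folding chaperones of the endoplasmic reticulum (ER) rise through the unfolded protein response (UPR) when folding capacity is short. Metallothioneins, which bind zinc and copper, and heat shock proteins, which refold cytosolic proteins, answer metal and protein stress.

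The 6 libraries held between 17634513 and 20203213 counts each, and 14557 genes passed the filter on low counts. FUCO-1 replicate 3 stood apart from its group. Its counts differed from those of FUCO-1 replicates 1 and 2 by 9.71 and 10.66 chi-square units per degree of freedom, against 4.389 between replicates 1 and 2 and 2.925 to 3.66 between Model replicates. Results below that rest on it are given with and without it. The hepatocyte identity of the cells was clear from their markers, with albumin (ALB) at 33620, 34280 and 33840 CPM (counts adjusted for library size) in Model and at 29360, 30300 and 30700 CPM in FUCO-1. The summed level of 16 hepatocyte markers was 64200 to 65960 CPM in Model and 59390 to 63170 CPM in FUCO-1. This sum and the marker sums below are over the raw library total, without the scaling used for single genes. In bulk libraries, fewer cells of a type and less RNA per cell cannot be told apart. Stellate cell markers summed to 18.18–20.05 and 17.27–19.73 CPM with COL3A1 and ACTA2 at 0 counts, macrophage markers to 3.603–3.826 and 2.653–3.856 CPM with CD163 and MARCO at 0, and endothelial markers to 1.186–1.474 and 1.134–1.732 CPM with CDH5, KDR and LYVE1 at 0. Cholangiocyte markers, which hepatoma cells also express, summed to 849.4–904.0 CPM in Model and 776.0–865.9 CPM in FUCO-1, and none was at 0.

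With FUCO at 1 μM, far more genes were lower than higher. A differentially expressed gene (DEG) had an adjusted p under 0.05 and a log2 fold change beyond 1 in either direction, and a gene "passed" when its adjusted p alone was under 0.05. All p-values come from edgeR's quasi-likelihood test, adjusted by Benjamini-Hochberg over the 14557 genes. Of these, 72 (0.495%) were DEGs, 66 lower (0.453%) and 6 higher (0.0412%), and 467 (3.21%) passed, 337 lower (2.32%) and 130 higher (0.893%). The median log2 fold change over all genes was −0.0017, a value that the TMM scaling of the libraries holds near 0. Without FUCO-1 replicate 3 the DEGs numbered 64 and the genes that passed 300. DEGs in both directions came from compact genes. Their median length in the genome was 5710.5 bases for the 66 lower ones and 3673.5 bases for the 6 higher ones. Over the tested genes with a known length the median was 28343 bases. In each direction 66.7% of the DEGs spanned under 10000 bases, against 23.3% of those tested genes. For genes that passed lower without being DEGs, the median was 20103 bases and the share 32.6%.

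**Figure D1:**
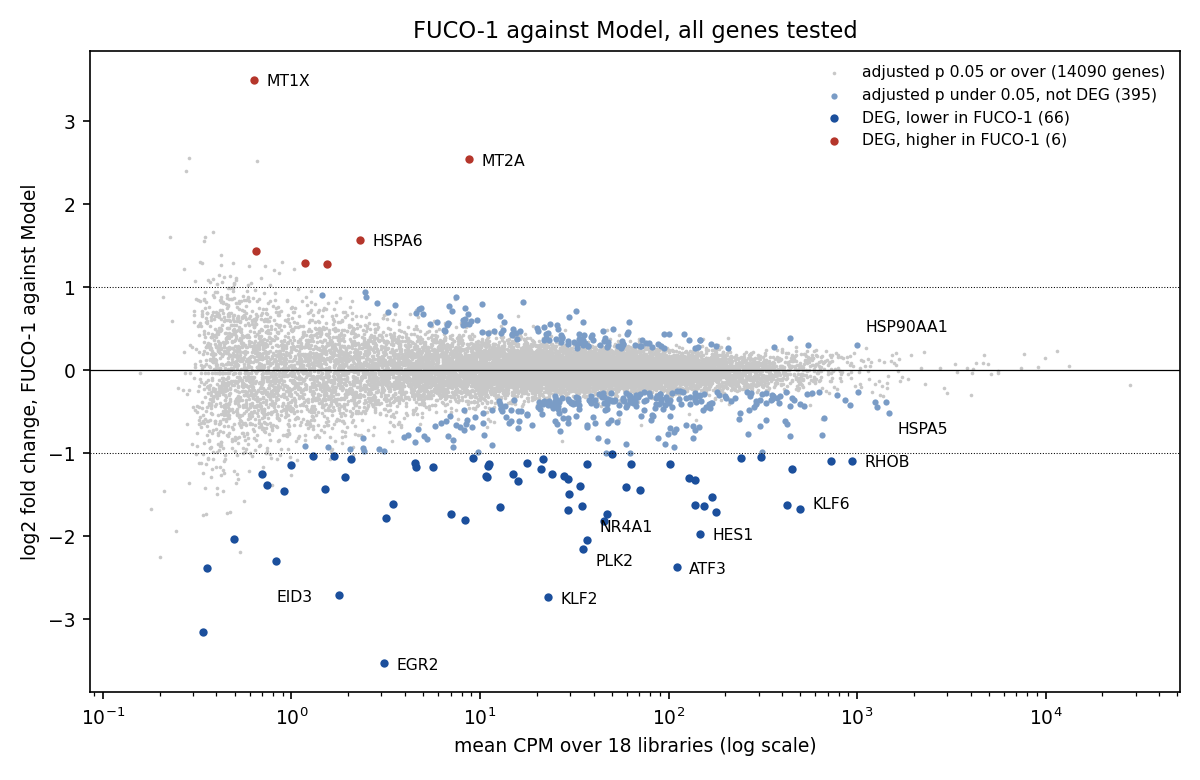
Each point is 1 of 14557 genes, with its mean level over 18 libraries in CPM on a log x axis and its log2 fold change of FUCO-1 against Model on the y axis. Dark blue points are the 66 lower DEGs, red points the 6 higher DEGs and pale blue points the 395 genes that passed without reaching a log2 fold change of 1. The lower DEGs run up to the level of RHOB, while the higher ones lie at low levels.

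Immediate early transcription factors were among the largest falls. Of the 5 lowest log2 fold changes, 2 were of such factors, EGR2 and KLF2, and the others were of EID3, LNC-LBCS and SULF2, an extracellular sulfatase at 8, 8 and 13 counts in Model and 1 count in each FUCO-1 library, whose call was lost with DESeq2 on all 18 libraries. In the EGR family, EGR2, a zinc finger factor at chr10:62811996-62819167 (RefSeq, GRCh38.p14), stood at 6.75, 5.95 and 8.50 CPM in the Model libraries and at 0.693, 0.546 and 0.571 CPM in the FUCO-1 libraries. The groups lay far apart, and the lowest Model library was above every FUCO-1 library. The log2 fold change was −3.53 (adjusted p = 2.25e-09, SE 0.27). EGR1, the abundant member of the family, was at 875.2, 918.2 and 954.5 CPM in Model and at 414.5, 422.1 and 449.0 CPM in FUCO-1, a log2 fold change of −1.10 (adjusted p = 5.62e-09, SE 0.09). The EGR corepressors NAB1 and NAB2 did not pass, so 2 of the 4 measured genes of this list fell and 0 rose, where 2.32% of all genes fell. This list and those below were written with earlier results of these data known. Their counts beside the share of all genes are therefore a description only.

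Both measured NR4A genes, orphan nuclear receptors that respond to growth and stress signals, fell. NR4A1 was at 69.7, 66.4 and 65.4 CPM in Model and at 16.1, 16.3 and 16.2 CPM in FUCO-1, 2 tight groups with a wide gap. Its log2 fold change was −2.05 (adjusted p = 5.01e-09, SE 0.17). NR4A2 changed by a log2 fold change of −1.64 (adjusted p = 9.87e-08, SE 0.16).

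Of 12 AP-1 and related factors, 9 fell and 0 rose, where 2.32% of all genes fell and 0.893% rose. All 12 had a negative log2 fold change (median −0.70). ATF3, a stress-induced repressor of this family, was at 185.5, 237.7 and 189.1 CPM in Model and at 38.3, 42.5 and 37.4 CPM in FUCO-1. The 3 FUCO-1 libraries lay together, well under the lowest Model library, and the log2 fold change was −2.37 (adjusted p = 9.27e-12, SE 0.13). FOSB, a Fos partner of the Jun proteins, fell by 1.62 on the log2 scale (adjusted p = 7.57e-05, SE 0.23) and JUN by 1.19 (adjusted p = 2.94e-08, SE 0.11). FOS, JUNB, JUND, FOSL2, MAFF and MAFK passed with smaller falls, between 0.56 and 0.99 on the log2 scale. Without FUCO-1 replicate 3, 8 of the 12 passed.

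A further 17 immediate early genes held 12 that fell and 0 that rose (2.32% and 0.893% of all genes). Their median log2 fold change was −0.77, and the same number of falls was counted without FUCO-1 replicate 3. PLK2, a kinase of the cell cycle and of stress responses, had the steepest change. It was at 64.4, 73.6 and 71.1 CPM in Model and at 13.7, 20.4 and 13.0 CPM in FUCO-1, with FUCO-1 replicate 2 the highest of its group and still far under the Model libraries. Its log2 fold change was −2.15 (adjusted p = 4.35e-10, SE 0.15). RHOB, a small GTPase and the most abundant of the lower DEGs, was at 1382, 1535 and 1427 CPM in Model and at 664.2, 672.5 and 705.4 CPM in FUCO-1 (log2 fold change −1.09, adjusted p = 2.19e-07, SE 0.11). MYC, the growth regulator, changed by −0.77 (adjusted p = 0.000168, SE 0.12), and ZFP36, which destabilises inflammatory mRNAs, by −0.89 (adjusted p = 0.000157, SE 0.13).

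**Figure D2:**
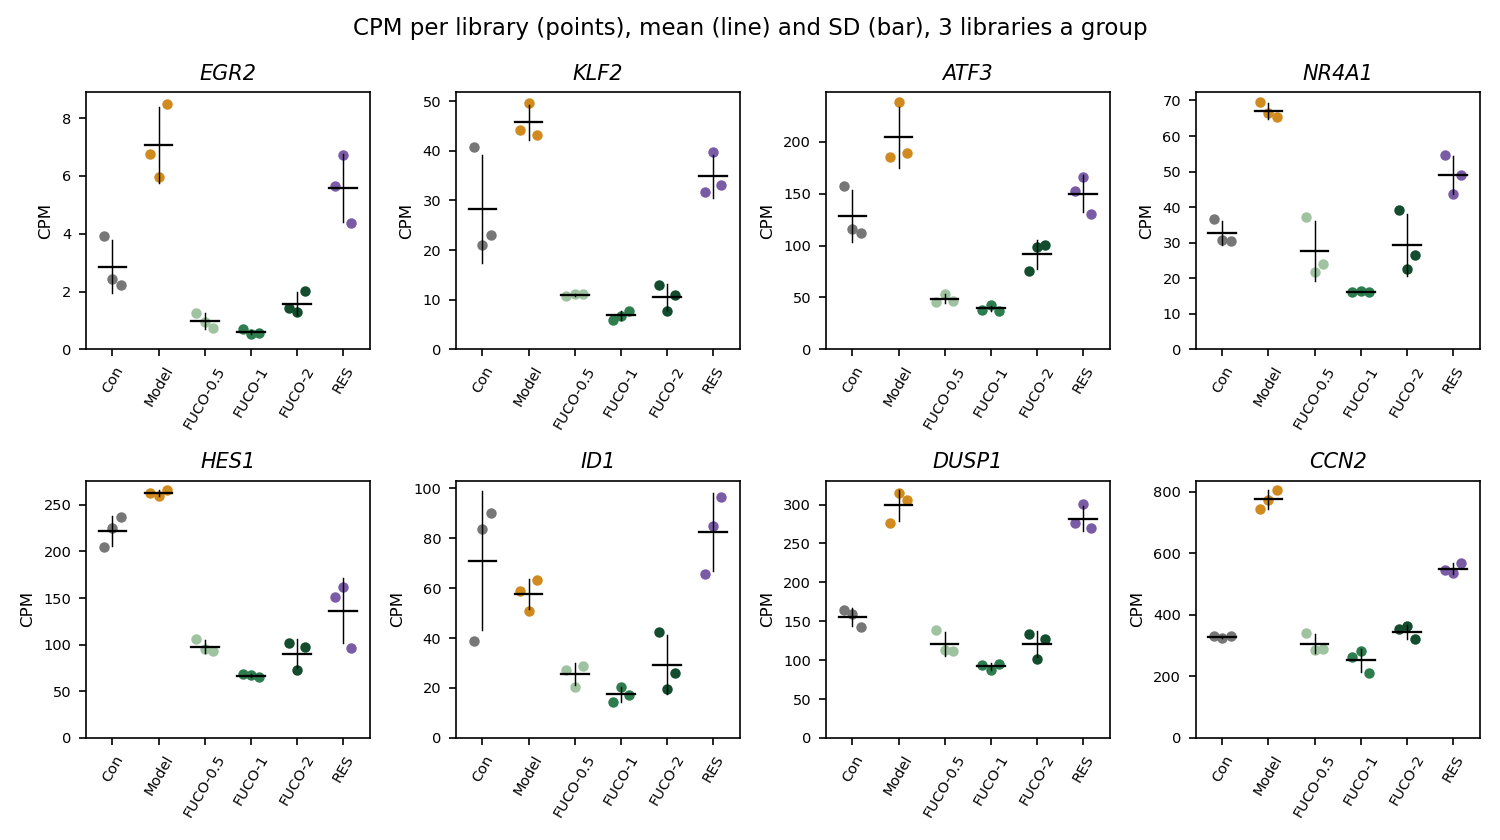
CPM of 8 genes that fell, 1 panel each, in the 18 libraries of 6 groups on the x axis. Points are libraries, lines the mean and bars the SD of 3 libraries, on y axes that start at 0. In each panel all FUCO-1 points lie below all Model points, and for HES1 the 3 FUCO-1 libraries sit between 65.2 and 68.1 CPM.

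KLF factors are zinc finger proteins, several of them short-lived, and 5 of the 13 measured fell while 0 rose (2.32% and 0.893% of all genes). KLF2, a member best known from endothelium, was at 44.3, 49.7 and 43.2 CPM in Model and at 5.99, 6.83 and 7.83 CPM in FUCO-1. KLF6, an abundant member in liver cells, was at 818.4, 982.1 and 859.2 CPM in Model and at 284.6, 281.1 and 271.0 CPM in FUCO-1. Neither gene had overlapping groups. Their log2 fold changes were −2.74 (adjusted p = 4.35e-10, SE 0.19) and −1.67 (adjusted p = 1.35e-11, SE 0.10). KLF10, KLF11 and KLF7 fell by 1.13, 0.78 and 0.38 on the log2 scale. For KLF6 the level at 0.5 μM was 422.4 CPM, and it was the 1 gene of all 14557 to pass between FUCO-1 and FUCO-0.5 (0.00687% of genes, log2 fold change −0.60, adjusted p = 0.0258, SE 0.10).

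Feedback regulators of MAP kinase signalling fell too. Of 15 dual-specificity phosphatases, Sprouty and SPRED genes, 6 fell and 0 rose (2.32% and 0.893% of all genes), and 5 fell without FUCO-1 replicate 3. DUSP1, which dephosphorylates p38 and JNK, was at 276.9, 315.2 and 306.0 CPM in Model and at 93.5, 86.9 and 95.5 CPM in FUCO-1. The groups were separated by a gap larger than the range within either. The log2 fold change was −1.70 (adjusted p = 9.40e-12, SE 0.10). DUSP5 and DUSP6, which act on ERK, fell by 1.28 (adjusted p = 8.60e-05, SE 0.19) and 0.72 (adjusted p = 7.86e-05, SE 0.10), DUSP10 by 1.15, DUSP4 by 1.05 and SPRY2, an ERK pathway inhibitor, by 0.39. DUSP4 was no DEG without FUCO-1 replicate 1 or 3 or Model replicate 2. RASD1, a Ras-related GTPase first found as a dexamethasone-induced gene, was at 76.8, 86.1 and 93.5 CPM in Model and at 25.9, 22.2 and 24.6 CPM in FUCO-1 (log2 fold change −1.82, adjusted p = 5.36e-06, SE 0.22).

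Of 10 genes of the bone morphogenetic protein (BMP) pathway, 3 fell and 0 rose, where 2.32% of all genes fell and 0.893% rose. The ligands BMP4 and BMP2 were DEGs with log2 fold changes of −1.25 (adjusted p = 5.03e-08, SE 0.12) and −1.13 (adjusted p = 1.56e-05, SE 0.15), and the receptor ACVR1 passed at −0.28. The ligand BMP6, at under 1 CPM, had a log2 fold change of −0.75 (adjusted p = 0.52). BMP2 was no DEG without FUCO-1 replicate 1 or Model replicate 2. Of 8 BMP targets, 5 fell, 4 of them the ID proteins, which block bHLH factors and differentiation. ID1 was at 58.8, 51.0 and 63.1 CPM in Model and at 14.4, 20.6 and 17.4 CPM in FUCO-1, with no overlap (log2 fold change −1.73, adjusted p = 8.73e-05, SE 0.25). ID4 was at 7.73, 7.90 and 8.83 CPM in Model and at 2.43, 2.90 and 2.06 CPM in FUCO-1 (log2 fold change −1.72, adjusted p = 1.56e-05, SE 0.22). ID3 and ID2 fell by 1.61 and 1.06 on the log2 scale. The inhibitory SMADs, which BMP and TGFβ also induce, had log2 fold changes of −0.26 (SMAD6, adjusted p = 0.45) and −0.12 (SMAD7, adjusted p = 0.748). Without FUCO-1 replicate 3, 4 of the 8 targets passed. In the longer TGFβ list 2 of 20 fell and 0 rose, against the same shares of all genes. The 2 were the receptor TGFBR1 and the corepressor TGIF1.

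Targets of the Hippo pathway coactivator YAP were split. CCN2, CCN1, ANKRD1 and AMOTL2 fell and the other 11 of 15 did not pass, where 2.32% of all genes fell. CCN2, a secreted matricellular protein, was at 745.1, 773.0 and 806.9 CPM in Model and at 262.7, 281.2 and 211.4 CPM in FUCO-1, and at 328.8 CPM in Con. Its log2 fold change was −1.62 (adjusted p = 9.27e-12, SE 0.09). ANKRD1, a nuclear cofactor known from muscle, was at 41.5, 61.9 and 42.4 CPM in Model and at 10.2, 26.0 and 9.31 CPM in FUCO-1, where replicate 2 was far above its partners without reaching the Model range. The log2 fold change was −1.68 (adjusted p = 9.95e-05, SE 0.25). HES1, a repressor downstream of Notch, was at 262.5, 259.6 and 266.0 CPM in Model and at 68.1, 67.4 and 65.2 CPM in FUCO-1 (log2 fold change −1.97, adjusted p = 2.03e-10, SE 0.13). It was the 1 gene of 10 in the Notch list to pass, and NRARP, another Notch target, had a log2 fold change of 0.09 (adjusted p = 0.79).

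Antiproliferative and stress-arrest genes fell in 5 of 11 cases, where 2.32% of all genes fell. BTG2, a regulator of mRNA decay and growth, changed by −1.63 on the log2 scale (adjusted p = 4.06e-09, SE 0.13), and GADD45B, GADD45G, GADD45A and BTG1 by −1.41, −1.16, −0.68 and −0.51. None of 23 cell cycle genes passed in either direction. KRT17, an intermediate filament protein, was at 5.43, 7.29 and 4.98 CPM in Model and at 1.29, 1.91 and 2.00 CPM in FUCO-1 (log2 fold change −1.77, adjusted p = 0.000257, SE 0.28). EID3, a small gene that lies inside TXNRD1, was at 1.43, 2.17 and 1.08 CPM in Model and at 0.198, 0.273 and 0.229 CPM in FUCO-1. Its log2 fold change was −2.71 (adjusted p = 8.58e-05, SE 0.39), whereas TXNRD1 had 0.21 (adjusted p = 0.302), and reads over both genes cannot be assigned with certainty. The call on EID3 was lost with DESeq2 on the 2 groups alone.

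Other lower DEGs were of several kinds. TXNIP and ARRDC3, arrestin-domain proteins that restrain glucose uptake and receptor signalling, changed by −1.19 (adjusted p = 0.0252, SE 0.30) and −1.25 (adjusted p = 7.39e-05, SE 0.18), and the call on TXNIP was lost without FUCO-1 replicate 1, 2 or 3 or Model replicate 1 or 3. CITED2, a cofactor of CBP and p300, was at 104.6, 109.7 and 114.4 CPM in Model and at 43.3, 39.7 and 38.04 CPM in FUCO-1, and TSC22D3 (GILZ), a glucocorticoid-induced leucine zipper protein, was at 23.14, 26.9 and 22.1 CPM in Model and at 9.71, 9.07 and 9.77 CPM in FUCO-1. Both were separated between groups, with log2 fold changes of −1.44 and −1.34. Secreted products included the vasoactive peptides EDN1 (−1.17) and ADM (−1.11), the cytokine LIF (−1.13) and the protease ADAMTS1 (−1.39). EDN1 was no DEG without Model replicate 2, nor LIF without FUCO-1 replicate 1 or 3. The noncoding LNC-LBCS, LINC01504, NR4A1AS and SEMA3F-AS1 had log2 fold changes between −2.38 and −1.06, with NR4A1AS antisense to NR4A1, whose reads cannot be told apart from it without strand. The calls on LNC-LBCS and NR4A1AS were lost without any 1 of the 6 libraries, and that on SEMA3F-AS1 without FUCO-1 replicate 1 or 3 or Model replicate 1 or 2. With DESeq2 on all 18 libraries the calls on TXNIP, LNC-LBCS, LINC01504 and NR4A1AS were lost.

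The printed stretches below come from RefSeq promoters (GRCh38.p14) and show short motifs of signal-responsive factors, in capitals, upstream of 5 lower DEGs. Motifs were searched on both strands in the 250 bases before the start of 27305 genes. Of the tested genes 11524 had an entry, and of the 66 lower DEGs 49. The cyclic AMP response element TGACGTCA was in 3 of the 49 (6.12%), in 2.74% of the tested genes and in 1.77% of all promoters. The CArG box bound by serum response factor was in 1 (2.04%), against 0.981% and 1.14%, and the TEAD motif GGAATG, which YAP uses, in 10 (20.4%), against 9.51% and 11.9%. Of the other motifs searched, the AP-1 site TGAGTCA was in 2 (4.08%), against 2.51% and 4.16%, the EGR motif (GCG, GGG and GCG joined) in 6 (12.2%), against 7.5% and 4.68%, and the E-box CACGTG in 9 (18.4%), against 8.81% and 6.49%. A match is a description of the letters only.
DUSP1, TGACGTCA, chr5:172771293-172771340, minus strand: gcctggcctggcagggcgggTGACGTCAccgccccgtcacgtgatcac
PPP1R15A, TGACGTCA, chr19:48872343-48872390, plus strand: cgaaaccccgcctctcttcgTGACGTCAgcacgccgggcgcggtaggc
EGR1, CArG box, chr5:138465354-138465425, plus strand: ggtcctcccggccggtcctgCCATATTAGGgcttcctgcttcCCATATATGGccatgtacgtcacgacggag
CCN2, GGAATG, chr6:131951442-131951561, minus strand: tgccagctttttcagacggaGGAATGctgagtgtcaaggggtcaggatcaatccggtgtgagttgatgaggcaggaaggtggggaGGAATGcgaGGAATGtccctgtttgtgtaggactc
ANKRD1, GGAATG, chr10:90921190-90921327, minus strand: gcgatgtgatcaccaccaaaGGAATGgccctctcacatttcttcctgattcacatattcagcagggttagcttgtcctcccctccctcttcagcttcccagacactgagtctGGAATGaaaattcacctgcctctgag

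A second group moved by smaller amounts and across most of its members. Of 16 ER chaperones and UPR genes, 13 fell and 0 rose, against 2.32% of all genes lower, and all 16 had a negative log2 fold change (median −0.39). HSPA5 (BiP), the main Hsp70 chaperone of the ER, was at 1764, 1734 and 1860 CPM in Model and at 1377, 1215 and 1169 CPM in FUCO-1. Every FUCO-1 library was below every Model library, and FUCO-1 lay near the Con mean of 1222 CPM (log2 fold change 0.04 against Con, adjusted p = 0.782). The log2 fold change was −0.51 (adjusted p = 8.87e-05, SE 0.07). HSP90B1, the ER form of Hsp90, was at 1451, 1517 and 1537 CPM in Model and at 1210, 1139 and 963.2 CPM in FUCO-1 (log2 fold change −0.44, adjusted p = 0.00126, SE 0.08). CALR, the lectin chaperone calreticulin, was at 1819, 1767 and 1889 CPM in Model and at 1431, 1296 and 1486 CPM in FUCO-1 (log2 fold change −0.38, adjusted p = 0.00213, SE 0.07).

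Smaller parts of the ER machinery fell with them. DNAJB9, a cofactor of HSPA5, was the 1 DEG of the list and lay at the limit of the fold change, at 56.3, 66.0 and 52.6 CPM in Model and at 31.4, 28.3 and 27.3 CPM in FUCO-1 (log2 fold change −1.01, adjusted p = 1.03e-07, SE 0.10), and it was no DEG without FUCO-1 replicate 2 or 3 or Model replicate 2. HERPUD1 and SEL1L, which serve ER-associated degradation, changed by −0.69 (adjusted p = 3.76e-06, SE 0.08) and −0.31 (adjusted p = 0.0186, SE 0.07). The disulfide isomerase PDIA4 changed by −0.43 (adjusted p = 8.58e-05, SE 0.06) and its relative PDIA6 by −0.26. MANF, CRELD2, DNAJC3, HYOU1 and XBP1, the last a transcription factor of the UPR, fell by 0.33 to 0.44 on the log2 scale. The sensor ATF6, EDEM1 and SDF2L1 did not pass (log2 fold changes −0.04, −0.04 and −0.32). Leaving out 1 library of the comparison at a time left 10 to 13 of the 16 lower, 12 without FUCO-1 replicate 3.

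**Figure D3:**
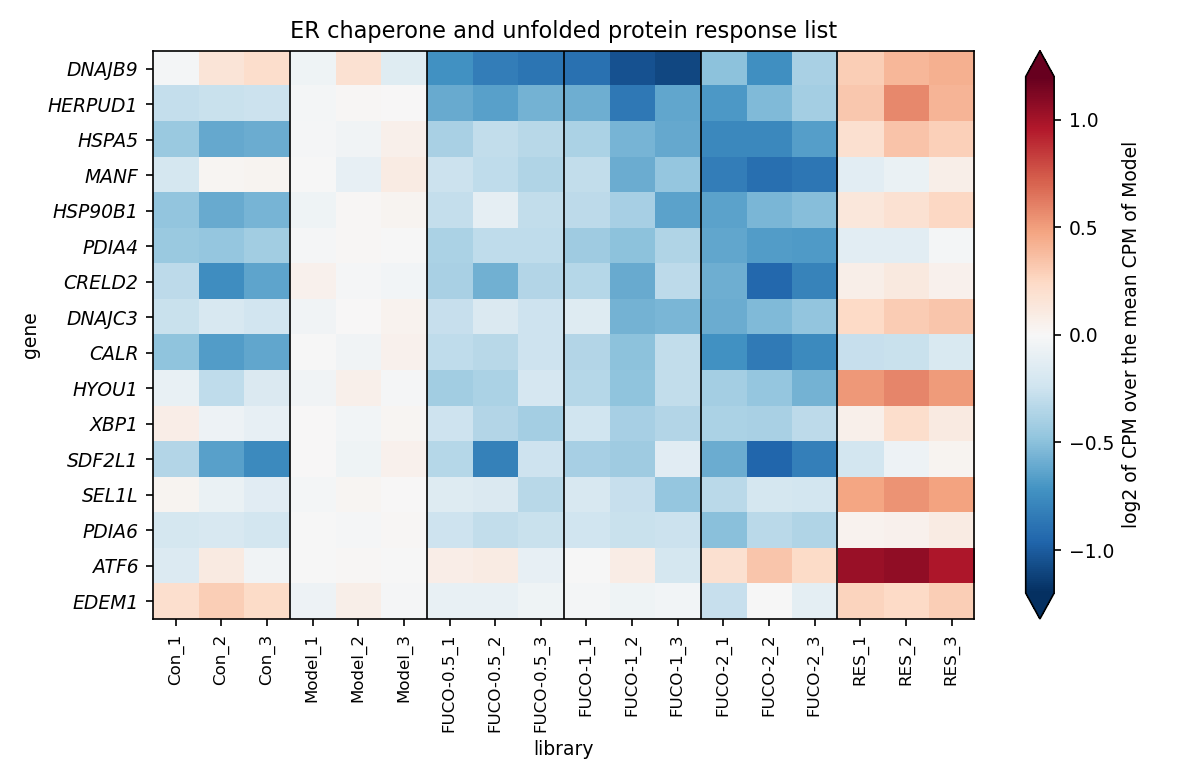
Rows are the 16 genes of the ER chaperone and UPR list and columns the 18 libraries in 6 groups, and the colour gives the log2 of a library's CPM over the mean CPM of Model. The FUCO-1 columns are blue for most rows and near white for ATF6 and EDEM1, and the Con columns are blue for HSPA5, HSP90B1, CALR, PDIA4, CRELD2 and SDF2L1.

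Against Con, 8 of these 16 genes were higher in Model (8.43% of all genes were) and 1 was lower (9.12% of all genes were). FUCO-1 was below Con for 6 of the 16 (10.1% of all genes were) and above it for 1 (8.22% of all genes were). Of the 66 lower DEGs, 49 were below Con in FUCO-1 and 1 above, and 38 were above Con in Model and 3 below. The 66 were chosen for low FUCO-1 and high Model values in these same libraries. That choice pushes both counts in the stated directions, so they are a description only. The 3 FUCO comparisons share the Model libraries, so their values are given side by side. At 0.5, 1 and 2 μM, 9, 13 and 14 of the 16 fell (1.16%, 2.32% and 9.71% of all genes fell), with medians of −0.32, −0.39 and −0.53. In direct tests 0 of the 16 passed between FUCO-1 and FUCO-0.5. In FUCO-2, 5 were lower and 2 higher than in FUCO-1 (2.23% and 4.07% of all genes). HSPA5 was at 1415 CPM at 0.5 μM and 1072 CPM at 2 μM. With RES it was at 2162 CPM.

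The ER stress response element, CCAAT and CCACG with 9 bases between them, lies on one strand or the other in the 250 bases before the start of 22 of the 27305 RefSeq genes (0.0806%) and of 0.121% of the tested genes. All 16 list members had a promoter entry and 5 held it (31.2%): HSPA5, HSP90B1, CALR, XBP1 and CRELD2. These 5 fell, but 13 of the 16 did, so members without the element fell too. The list was made of UPR genes, so its share of the element is no result about FUCO. The 5 are shown with the element in capitals, and a match is again a description of the letters only.
HSPA5, chr9:125241371-125241429, minus strand: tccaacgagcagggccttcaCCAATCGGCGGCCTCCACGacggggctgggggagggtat
HSP90B1, chr12:103930196-103930359, plus strand: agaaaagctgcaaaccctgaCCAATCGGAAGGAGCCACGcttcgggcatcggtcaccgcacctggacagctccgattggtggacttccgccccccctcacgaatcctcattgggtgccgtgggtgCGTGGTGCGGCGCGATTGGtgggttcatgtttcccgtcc
CALR, chr19:12938364-12938422, plus strand: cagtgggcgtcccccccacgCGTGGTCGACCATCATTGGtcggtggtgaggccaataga
XBP1, chr22:28800583-28800641, minus strand: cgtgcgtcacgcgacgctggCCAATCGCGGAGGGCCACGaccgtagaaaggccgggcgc
CRELD2, chr22:49918534-49918592, plus strand: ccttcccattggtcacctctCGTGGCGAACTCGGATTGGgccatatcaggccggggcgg

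The integrated stress response, which ATF4 drives when translation is restrained, was lower in part. Of 21 genes, 5 fell and 1 rose (2.32% and 0.893% of all genes), and 17 had a negative log2 fold change (median −0.18). Against Con, 16 of the 21 were lower and 0 higher in FUCO-1 (10.1% and 8.22% of all genes). In Model, 11 were lower than in Con and 0 higher (9.12% and 8.43%). GDF15, a secreted stress hormone, was at 273.9, 318.9 and 288.7 CPM in Model and at 134.6, 143.8 and 149.4 CPM in FUCO-1 (log2 fold change −1.04, adjusted p = 0.000214, SE 0.16), and it was no DEG without FUCO-1 replicate 1 or Model replicate 2. DDIT3 (CHOP), SESN2, VLDLR and TRIB3 changed by −0.64, −0.64, −0.44 and −0.33. DDIT4, an inhibitor of mTOR, rose from 39.3, 38.7 and 47.9 CPM in Model to 67.1, 51.8 and 70.1 CPM in FUCO-1, with no overlap (log2 fold change 0.59, adjusted p = 0.00519, SE 0.12). ATF4 itself had a log2 fold change of −0.20 (adjusted p = 0.0912, SE 0.06). At 0.5 μM 10 fell and 0 rose (1.16% and 0.289% of all genes), and at 2 μM 11 rose and 0 fell (10.8% and 9.71%). Direct tests between FUCO-1 and FUCO-0.5 gave 0 of the 21 that passed. GDF15 was at 132.3 CPM at 0.5 μM and at 326.4 CPM at 2 μM.

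**Figure D4:**
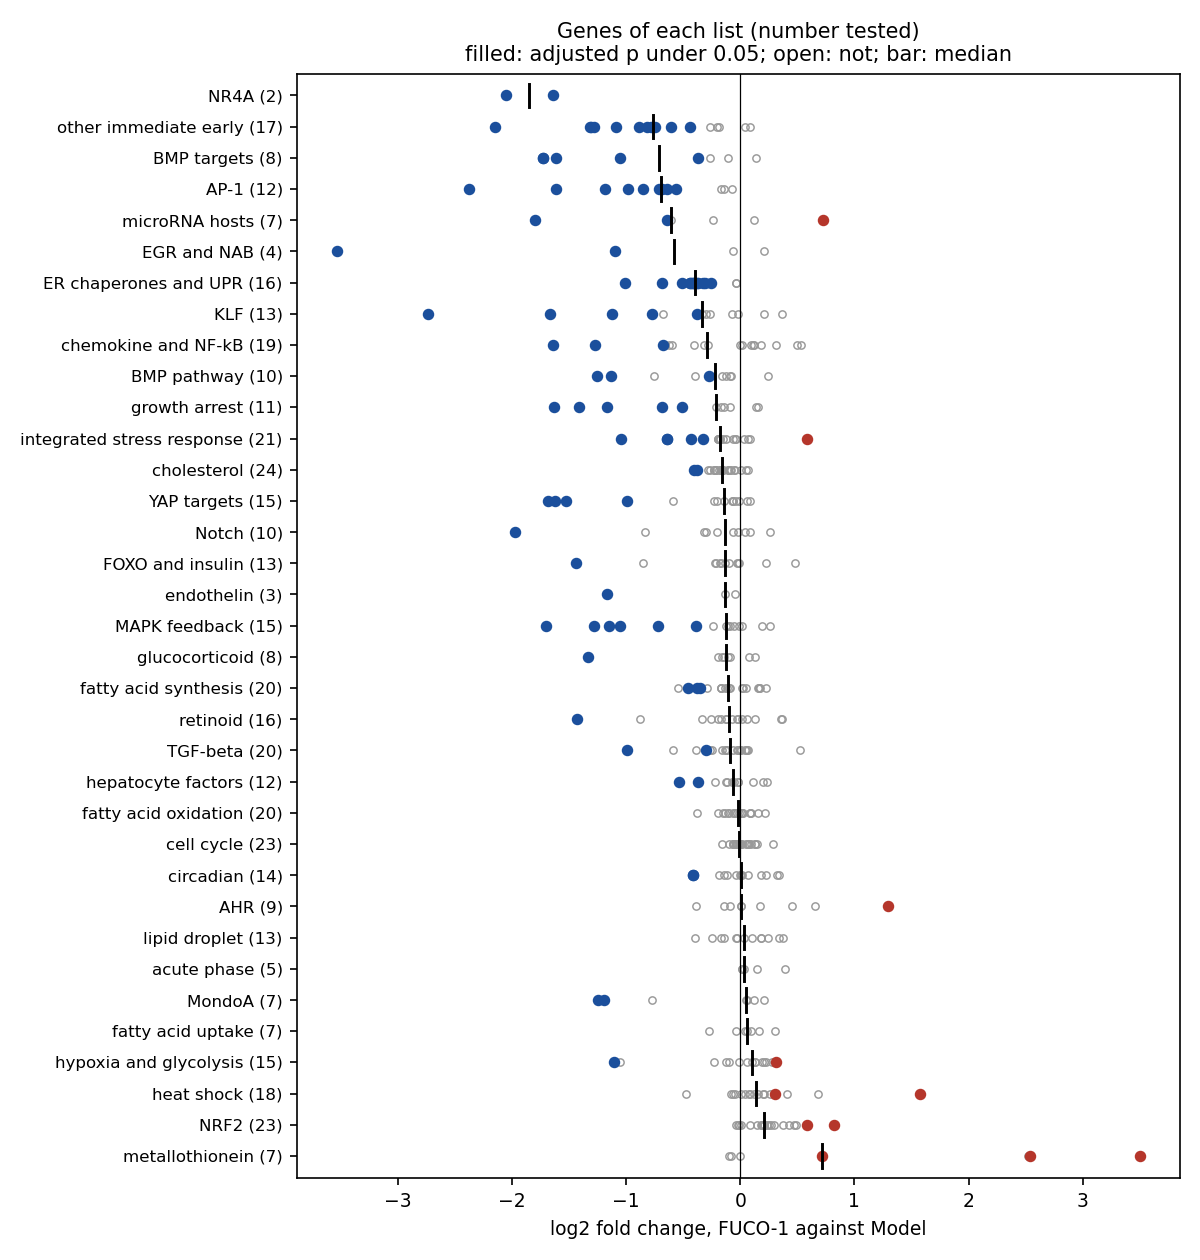
Each row is 1 of 35 gene lists with the number of genes tested, each circle a gene and the x axis its log2 fold change of FUCO-1 against Model. Filled circles passed (blue lower, red higher), open circles did not, and the black bar is the median of the list. The NR4A, immediate early, BMP target, AP-1 and ER chaperone lists lie to the left of 0 and the metallothionein list reaches the farthest right.

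Few genes rose, and metal and protein stress genes led them. MT2A, the main metallothionein of the liver, was at 0.713, 1.17 and 0.542 CPM in Model and at 3.96, 6.99 and 3.20 CPM in FUCO-1. The groups did not overlap, and the counts behind the Model values were 13, 21 and 10. The log2 fold change was 2.54 (adjusted p = 0.000255, SE 0.40). MT1X, a second metallothionein, had 0, 0 and 2 counts in Model and 9, 13 and 5 in FUCO-1, a ratio of 13.4. The 95% exact interval of this ratio, 3.37 to 116, covers counting error only. The call on MT1X was lost with DESeq2 on all 18 libraries, and without FUCO-1 replicate 2 or Model replicate 1 or 2. The metallothioneins are near-identical copies, so reads may be split among them. SLC30A1, a zinc exporter of the plasma membrane that the same metal-sensing factor induces, was at 16.3, 18.6 and 16.4 CPM in Model and at 30.9, 30.3 and 22.7 CPM in FUCO-1 (log2 fold change 0.71, adjusted p = 0.00588, SE 0.15). These were the 3 of 7 genes of the list to pass, where 0.893% of all genes rose. KIF5A, a neuronal kinesin, was a DEG under 1 CPM (log2 fold change 1.44, adjusted p = 0.0409). The call on KIF5A was lost with DESeq2 and without any 1 of the 6 libraries.

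HSPA6, a strictly inducible Hsp70, was at 0.713, 0.556 and 0.596 CPM in Model and at 1.78, 1.64 and 2.17 CPM in FUCO-1, and at 0.0553 CPM in Con. Its log2 fold change was 1.57 (adjusted p = 0.00246, SE 0.30), and reads may be shared with other Hsp70 genes. HSP90AA1, the inducible cytosolic Hsp90, was the only other one of 18 heat shock genes to pass, at 729.9, 748.3 and 800.4 CPM in Model and 987.0, 1018 and 814.5 CPM in FUCO-1 (log2 fold change 0.31, adjusted p = 0.0489, SE 0.09), a call that was lost without any 1 of the 5 libraries other than FUCO-1 replicate 3. In the NRF2 list, 2 of 23 rose: HMOX1, which degrades heme, from 25.7, 22.9 and 22.5 CPM to 35.1, 37.0 and 34.5 CPM (log2 fold change 0.58, adjusted p = 0.0186, SE 0.14), and OSGIN1, an oxidative stress-induced growth inhibitor, from 10.97, 10.3 and 10.2 CPM to 18.5, 17.5 and 19.5 CPM (log2 fold change 0.82, adjusted p = 0.000682, SE 0.14). The classic NRF2 target NQO1 had a log2 fold change of 0.21 (adjusted p = 0.596). Without FUCO-1 replicate 3, 3 heat shock genes and 1 NRF2 gene rose.

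Across doses, the same lists gave 1, 3 and 4 genes that rose for metallothioneins, 1, 2 and 16 for heat shock and 0, 2 and 15 for NRF2 at 0.5, 1 and 2 μM, where 0.289%, 0.893% and 10.8% of all genes rose. MT2A was at 2.39, 4.72 and 31.0 CPM at these doses and HSPA6 at 0.921, 1.86 and 9.01 CPM. Tested directly, both were higher in FUCO-2 than in FUCO-1 (log2 fold changes of 2.72 and 2.27), as were 4.07% of all genes, while 2.23% were lower. Between FUCO-1 and FUCO-0.5, 0 genes of these lists passed in either direction.

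**Figure D5:**
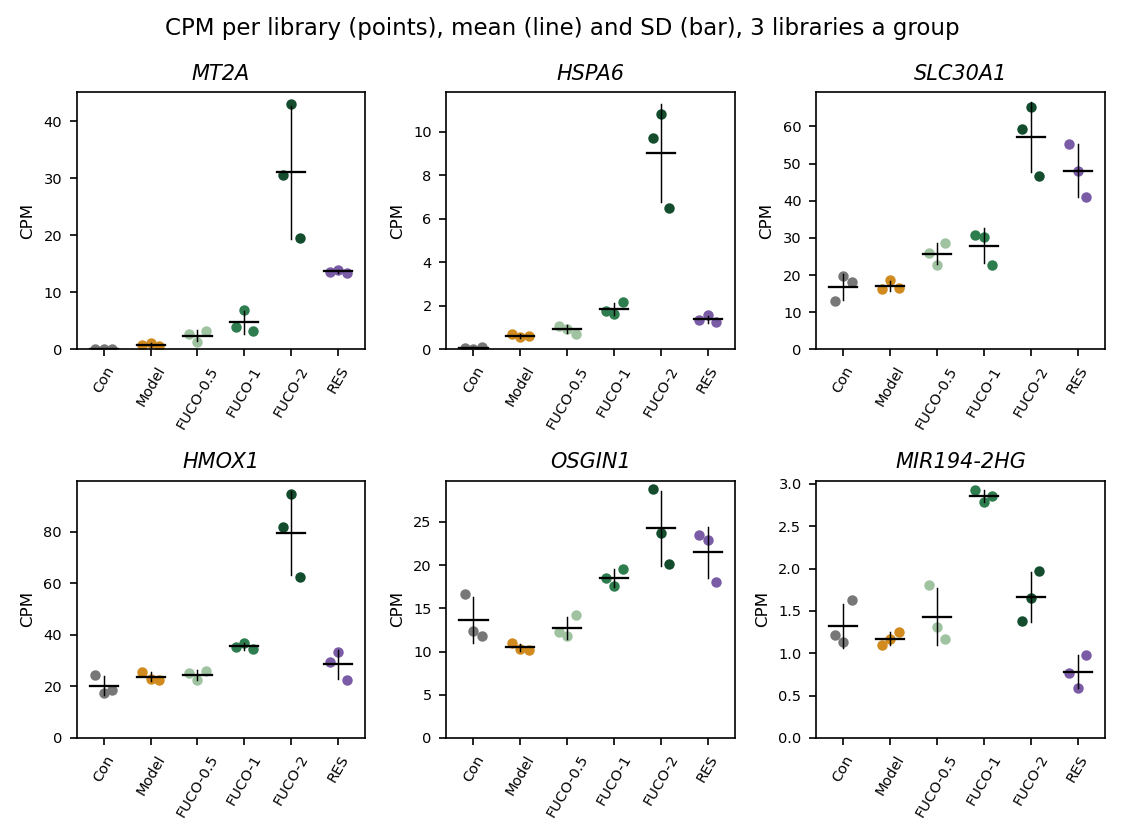
CPM of 6 genes that rose, 1 panel each, in the 18 libraries of 6 groups on the x axis. Points are libraries, lines the mean and bars the SD of 3 libraries, on y axes that start at 0. MT2A, HSPA6, SLC30A1 and HMOX1 are highest at 2 μM, and MIR194-2HG is highest in the 3 FUCO-1 libraries at 2.79 to 2.92 CPM.

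The metal response element was searched as TGCGCNC or TGCACNC on both strands, and such short words are common: 24.7% of the 27305 promoters hold one, as do 33.1% of the tested genes and 17 of the 49 lower DEGs with an entry (34.7%). The heat shock element, 3 alternating GAA and TTC units with 2 bases between neighbours, was searched on both strands and is in 0.439% of all promoters and 0.286% of those of tested genes. MT2A held 7 of the metal elements, MT1X 4 and SLC30A1 1, and HSPA6 held 1 heat shock element, printed here for the genes that led the rises.
MT2A, chr16:56608334-56608583, plus strand: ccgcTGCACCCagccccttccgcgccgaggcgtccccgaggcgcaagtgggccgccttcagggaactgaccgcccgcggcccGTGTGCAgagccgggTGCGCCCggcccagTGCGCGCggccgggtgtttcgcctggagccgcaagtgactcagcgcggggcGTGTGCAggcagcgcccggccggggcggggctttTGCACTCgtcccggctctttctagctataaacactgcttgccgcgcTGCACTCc
MT1X, chr16:56682300-56682443, plus strand: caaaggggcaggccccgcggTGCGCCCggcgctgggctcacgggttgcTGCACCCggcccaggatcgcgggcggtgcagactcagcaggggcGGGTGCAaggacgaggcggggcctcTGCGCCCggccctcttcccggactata
SLC30A1, chr1:211579184-211579230, minus strand: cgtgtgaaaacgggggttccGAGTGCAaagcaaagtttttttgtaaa
HSPA6, chr1:161524446-161524498, plus strand: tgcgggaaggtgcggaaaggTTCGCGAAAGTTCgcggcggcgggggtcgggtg

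Host transcripts of microRNAs moved in both directions. MIRLET7A1HG, the noncoding host of a let-7 cluster at chr9:94166258-94200905, was at 13.1, 15.6 and 12.5 CPM in Model and at 3.52, 4.43 and 3.88 CPM in FUCO-1. The groups did not overlap, and the log2 fold change was −1.80 (adjusted p = 2.18e-08, SE 0.16). MIR194-2HG, the host of miR-192 and miR-194-2 at chr11:64888458-64893449, was at 1.097, 1.17 and 1.25 CPM in Model and at 2.92, 2.79 and 2.86 CPM in FUCO-1 (log2 fold change 1.28, adjusted p = 0.00079, SE 0.22). MIR22HG fell by 0.64 on the log2 scale and MIR3142HG, the host of miR-146a, rose by 0.72 (adjusted p = 0.0395). Mature microRNAs were not measured in these polyadenylated libraries. The 5′ arms within both hosts (RefSeq, GRCh38.p14) are printed with the seed, bases 2 to 8, in capitals. The 3 let-7 arms share 1 seed, and miR-192 and miR-194 have their own.
hsa-let-7a-5p: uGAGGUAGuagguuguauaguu
hsa-let-7f-5p: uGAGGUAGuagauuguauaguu
hsa-let-7d-5p: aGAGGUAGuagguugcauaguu
hsa-miR-192-5p: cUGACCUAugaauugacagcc
hsa-miR-194-5p: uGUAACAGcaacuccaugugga

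Lipid genes moved little at this dose. CD36, the fatty acid translocase of the study's question, was at 1.81, 1.06 and 1.68 CPM in Model and at 2.13, 1.42 and 2.06 CPM in FUCO-1. The groups overlapped, and the log2 fold change was 0.30 (adjusted p = 0.729, SE 0.35) with a 95% interval of −0.42 to 1.03. None of the 7 fatty acid uptake, 20 fatty acid oxidation or 13 lipid droplet genes passed. PLIN2, the coat protein of lipid droplets, was at 817.4, 892.7 and 829.5 CPM in Model and at 686.6, 746.2 and 710.1 CPM in FUCO-1, without overlap (log2 fold change −0.24, 95% interval −0.41 to −0.08, adjusted p = 0.0909), and at 397.6 CPM in Con. Of 20 fatty acid synthesis genes 3 fell, where 2.32% of all genes did. On the log2 scale the elongase ELOVL6 fell by 0.46 (adjusted p = 0.00142, SE 0.08), the desaturase FADS2 by 0.38 (adjusted p = 0.0103, SE 0.08) and the acyl-CoA synthetase ACSL1 by 0.35 (adjusted p = 0.0419, SE 0.10). In the cholesterol synthesis list, HMGCS1, which makes HMG-CoA, was at 1391, 1485 and 1491 CPM in Model and at 1189, 1148 and 1017 CPM in FUCO-1 and fell by 0.38 on the log2 scale (adjusted p = 0.0259, SE 0.10), a call that was lost without any 1 library other than FUCO-1 replicate 1.

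Of 19 tested chemokine and NF-kB genes, 3 fell and 0 rose, where 2.32% of all genes fell and 0.893% rose. CXCL8, the neutrophil chemokine, was at 211.6, 302.9 and 229.7 CPM in Model and at 63.2, 115.9 and 60.2 CPM in FUCO-1, with replicate 2 the highest in each group and no overlap (log2 fold change −1.64, adjusted p = 0.00145, SE 0.30). CXCL2 and the NF-kB regulator NFKBIZ also fell (log2 fold changes −1.27 and −0.67), and the other 16 of 19 genes of the list did not pass. CCL2, IL6, IL1B and TNF were on the list too but did not pass the filter on low counts. They were not tested, so nothing is said on their change. CXCL2 was no DEG without FUCO-1 replicate 1 or 3. None of the 5 measured acute phase genes passed. The 3 fibrinogen chains, secreted as 1 complex and encoded next to each other on chromosome 4, were the 3 of 16 hepatocyte markers to pass, and FGB was at 110.4, 112.4 and 112.2 CPM in Model and at 59.7, 65.9 and 70.6 CPM in FUCO-1 (log2 fold change −0.77, adjusted p = 8.58e-05, SE 0.11). FGG and FGA changed by −0.59 and −0.47. Without FUCO-1 replicate 3, 5 of the 16 markers passed. NR0B2 (SHP), a repressor of bile acid synthesis, fell by 0.54 (adjusted p = 0.00174, SE 0.10). RARB, a retinoic acid receptor, was the 1 of 16 retinoid genes to pass (log2 fold change −1.43, adjusted p = 0.00202, SE 0.27). AHRR, the repressor of the aryl hydrocarbon receptor, was the 1 of 9 in its list, where 3.21% of all genes passed. AHRR was at 0.823, 0.445 and 0.867 CPM in Model and at 2.23, 1.09 and 1.94 CPM in FUCO-1 (log2 fold change 1.30, adjusted p = 0.0328, SE 0.34), and its call was lost without FUCO-1 replicate 1 or 3 or any 1 Model library.

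The most abundant genes to rise, besides HSP90AA1, were PRKDC, a DNA repair kinase, HMGA1, a chromatin protein, AARS1, an alanyl-tRNA synthetase, and SLC25A5, a mitochondrial ADP/ATP carrier, with small changes. PRKDC was at 466.9, 477.2 and 471.9 CPM in Model and at 600.3, 557.2 and 587.1 CPM in FUCO-1 (log2 fold change 0.30, adjusted p = 0.0178, SE 0.07). HMGA1 was at 387.9, 363.5 and 392.6 CPM in Model and at 489.4, 493.2 and 510.7 CPM in FUCO-1 (log2 fold change 0.38, adjusted p = 0.0196, SE 0.09). AARS1 was at 308.6, 297.6 and 334.8 CPM in Model and at 387.5, 348.2 and 406.7 CPM in FUCO-1 (log2 fold change 0.28, adjusted p = 0.0425, SE 0.08). For these 3 genes and SLC25A5 the groups did not overlap. SLC25A5 was at 177.0, 171.2 and 189.5 CPM in Model and at 204.0, 220.8 and 223.8 CPM in FUCO-1 (log2 fold change 0.27, adjusted p = 0.0479, SE 0.08). None of the 4 passed without FUCO-1 replicate 3 or without Model replicate 1 or 2. Without Model replicate 3, PRKDC, HMGA1 and SLC25A5 did not pass, without FUCO-1 replicate 1 PRKDC and AARS1 did not, and without FUCO-1 replicate 2 SLC25A5 did not. The most abundant genes to fall were HSPA5, CALR, HSP90B1, HMGCS1 and ITIH2, a hyaluronan-binding plasma protein, which was at 1136, 1094 and 1196 CPM in Model and at 930.5, 982.1 and 940.3 CPM in FUCO-1 (log2 fold change −0.26, adjusted p = 0.0453, SE 0.07). The call on ITIH2 was lost without any 1 of the 6 libraries. Of 75 respiratory chain genes 0 passed, and of 78 ribosomal protein genes 74 had a positive log2 fold change (median 0.15), 0 rose and 1 fell, RPL36A at −0.61.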

How the data were processed

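The deposited values are raw read counts per gene for 18 libraries of polyadenylated RNA from Hep3B cells. The authors cleaned the paired-end reads (fastp), mapped them to GRCh38.p14 (STAR), summed reads by gene (featureCounts) and deposited these counts with no normalization. The annotation named in the study's methods is GENCODE, and strand setting and the handling of multi-mapped reads were not given in the sources used here, so overlapping genes and close paralogs are uncertain. Each column was tied to its sample by the library name in the labels, and 0 columns were left out.

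From the counts, edgeR 4.0.16 in R 4.3.3 was fitted to all 18 libraries with 1 term per group (TMM normalization, filterByExpr with a minimum count of 10 and a minimum total of 15, prior count 0.125, quasi-likelihood test). Of 36684 symbols, 24090 had a count and 14557 were tested, holding 99.94% of all counts. DESeq2 1.42.0, the tool of the study's methods, was an alternative. CPM are counts over the TMM-scaled library size and are not scaled by gene length. Summed marker levels are the exception and use the raw library total. SE is the absolute log2 fold change over the square root of the F statistic. Both tools were tested on simulated data.

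The members and gene lists (37 pathway and 5 marker lists) were chosen with earlier results of these data known. Full values are given for the 15 largest falls and for the rises among DEGs that averaged 1 CPM or more and whose groups did not overlap, for EGR2, CCN2, NR4A1 and CD36, and for the 5 most abundant genes that passed in each direction, and any list member or DEG may be named. The libraries are labelled as replicates, the study's methods call them biological, and nothing pairs them across groups. The 250 bases before each start came from RefSeq. Alternatives were DESeq2 and edgeR with all libraries or 2 groups, RLE factors, no filter, at least 10 counts in every library, a prior count of 2, glmTreat, a replicate block and leaving out each library. All samples came from a single sequencing run per the study's methods, and no batch is labelled.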

Additional observations from a re-analysis of the deposited data

Results flagged for a closer look

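Of the 66 lower DEGs, 33 were higher in FUCO-2 than in FUCO-1 and 0 lower (4.07% and 2.23% of all genes). Of the 6 higher DEGs 3 were higher and 1 lower. Against Model, 51 of the 66 were lower and 1 higher in FUCO-2 (9.71% and 10.8% of all genes). In FUCO-0.5, 53 of the 66 were lower than in Model and 0 higher (1.16% and 0.289%). The 66 were chosen for low FUCO-1 and high Model values. The test of FUCO-2 against FUCO-1 shares the FUCO-1 libraries, and those of FUCO-2 and FUCO-0.5 against Model share the Model libraries. That choice pushes the counts of the 66 in the stated directions, so they are a description only. Values are given for 15 genes that passed a test between doses, taken from the 15 largest falls and the rises among DEGs at 1 CPM or more without overlap, and CCN2. They were chosen on their FUCO-1 values, and these tests share the FUCO-1 libraries, so a high or low FUCO-1 library moves both results. FUCO-2 was above FUCO-1 for MT2A (log2 fold change 2.72, adjusted p = 2.15e-07) and HSPA6 (2.27, adjusted p = 2.06e-07).

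Among genes lower in FUCO-1 than in Model, FUCO-2 was higher than FUCO-1 by log2 fold changes of 3.08 for EID3, 1.71 for ANKRD1, 1.37 for EGR2, 1.33 for KRT17, 1.21 for ATF3, 0.86 for NR4A1, 0.83 for RASD1, 0.62 for MIRLET7A1HG, 0.46 for CCN2, 0.43 for HES1, 0.40 for KLF6 and 0.39 for DUSP1. The levels of EID3 were 0.469, 0.233 and 2.02 CPM and those of ANKRD1 20.3, 15.2 and 49.4 CPM at 0.5, 1 and 2 μM.

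MIR194-2HG was lower at 2 μM than at 1 μM (log2 fold change −0.78, adjusted p = 0.0262), and KLF6 was lower at 1 μM than at 0.5 μM (−0.60). The cause of these differences was not tested.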

How the results depend on the processing

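For FUCO-1 against Model, 47 of the 72 DEGs were called in every alternative other than glmTreat that tested them (14, or 13 for MT2A, HSPA6 and RARB), 25 were lost in at least 1, and 0 changed direction. glmTreat, which tests the fold change against the threshold itself, called 16. DESeq2 lost 11 of the 72 with all 18 libraries and 8 with the 2 groups alone. The count of genes that passed was 807 with DESeq2 and 976 with edgeR when the fit held the 2 groups alone, against 467, and 220 to 377 when 1 library was left out (300 without FUCO-1 replicate 3, 266, 220 and 273 without Model replicates 1, 2 and 3), where fewer samples were fitted. FUCO-1 against FUCO-0.5 gave 0 DEGs, 6 with no filter on low counts and 0 to 1 when 1 library was left out. The cause was not tested for the 2-group fits or for the missing filter. Requiring at least 10 counts in every library, which tests fewer genes, gave 45 DEGs for FUCO-2 against FUCO-1, 180 for FUCO-1 against Con and 146 for Model against Con, against 84, 340 and 284.

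Replicate numbers do not pair the libraries: deviations of same-numbered Model and FUCO-1 libraries correlated at −0.01431, 0.1057 and −0.02458. With the replicate block, 77 genes were DEGs and 510 passed. glmTreat was not applied to genes that were not DEGs. Depth limits the genes under 1 CPM.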

Other observations

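Genes of protein entry into the ER and of the early secretory pathway lie outside the ER chaperone list, and 7 of their families were taken whole by symbol after the ER values had been seen. Of 43 tested members, 39 had a negative log2 fold change, with a median of −0.19. In all 10 fell and 1 rose, where 2.32% of all genes fell and 0.893% rose. PDIA4 and PDIA6, already counted in the ER chaperone list, were among the falls. The falls were in the disulfide isomerases (4 of 5, PDIA3 at −0.42 and PDIA5 at −0.35 among them), the KDEL receptors that return chaperones to the ER (2 of 3, KDELR3 at −0.37), the cargo receptors TMED2 and TMED7 (−0.39 and −0.31), the translocation channel subunit SEC61B (−0.26) and the oligosaccharyltransferase subunit OSTC (−0.35). None of the 4 translocon-associated SSR proteins or of the 5 signal peptidase subunits passed, although all 9 had negative values. KRTCAP2, another oligosaccharyltransferase subunit, was the 1 gene that rose (0.61).

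Among further genes that rose, MTLN, a mitochondrial micropeptide gene, had a log2 fold change of 0.95 and PPP1R3C, a glycogen-targeting subunit of protein phosphatase 1, of 0.88. Both were named after their values were seen.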
